A study of Mus musculus with 6 samples.

Results

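CpG methylation was described at 4 imprinted loci of the mouse genome: those of Plagl1, Impact, Igf2r with its antisense partner Airn, and Nnat. Members were CpGs with at least 10 reads, strands merged, in at least 2 samples of each genotype, inside fixed mm39 intervals. The intervals were chr10:12930000-13015000 for Plagl1, chr18:13095000-13130000 for Impact, chr17:12900000-12995000 for Igf2r and Airn, and chr2:157390000-157415000 for Nnat. Of 369 CpGs listed in any library in these intervals, 191 met the rule: 52 of 111 at Plagl1, 19 of 35 at Impact, 58 of 109 at Igf2r-Airn and 62 of 114 at Nnat. Over all autosomes 864621 of 1603853 listed CpGs did so. The intervals were drawn around genes known to be imprinted, though with earlier results of these data known.

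The samples were neocortex of mice at postnatal day 5 (P5), 3 wild-type (WT) and 3 Chd8+/-, the latter carrying a heterozygous change in the gene of the chromodomain remodeller CHD8. The study asked what such a genotype does to the neocortical DNA methylome. DNA was cut with MspI, which recognises CCGG, and sequenced after bisulfite conversion (reduced representation bisulfite sequencing, RRBS), so each value is the percentage of reads that kept a cytosine at a CpG. The labels name neither the allele, strain or sex nor whether the samples of a group were separate animals, so a p-value here reflects only how these samples spread, which may be partly technical. No read carries its parent of origin here, and a level near 50% is a mean over both alleles and all cells of the tissue.

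Coverage summed over listed cytosines ran from 32285980 to 54818138 per library, and the deepest Chd8+/- library fell short of the shallowest WT one. At the member CpGs the median was 26 reads, and 110 of the 191 had reads in all 6 libraries. Chromosome X held 2.58% and 2.56% of this coverage in replicate 3 of WT and Chd8+/- and 1.18% to 1.21% in the other libraries. Genotype and depth cannot be told apart in this design.

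At an imprinted gene one parental copy is silenced, and the locus holds a differentially methylated region that is methylated on one parental copy, in the classical cases from the germline on. The factor ZFP57 binds the methylated hexamer TGCCGC and protects such regions when the rest of the genome is demethylated after fertilisation. Plagl1 encodes a zinc finger transcription factor that restrains cell growth, Impact a neuron-rich inhibitor of the GCN2 stress kinase pathway, and Nnat (neuronatin) a small membrane protein of the endoplasmic reticulum. All 3 are expressed from the paternal copy, and their maternal copy is methylated. Igf2r encodes the receptor that takes the growth factor IGF2 to the lysosome. It is expressed from the maternal copy in most tissues and from both copies in neurons. Airn is a noncoding RNA that starts inside Igf2r on the paternal copy, runs antisense to it and silences it, and the maternal copy of the Airn start region is methylated. Nnat lies in an intron of Blcap, a gene read from the other strand.

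RefSeq promoter sequences (table build GRCm38.p6, 250 bases before to 50 bases after the gene start) matched 4 of the 5 members: Plagl1, Igf2r, Airn and Nnat. They were placed on mm39 by the spacing of their CG dinucleotides against the listed CpG positions, and for Igf2r the placement with the most matches was taken among 6. The promoters of Plagl1, Nnat and Igf2r are shown because the near-50% levels of Plagl1 and Nnat lie around their starts, whereas the Igf2r promoter was almost free of methylation. In each, 5′ to 3′ along the gene, capitals mark the CGs listed with at least 10 reads in any library.
Plagl1: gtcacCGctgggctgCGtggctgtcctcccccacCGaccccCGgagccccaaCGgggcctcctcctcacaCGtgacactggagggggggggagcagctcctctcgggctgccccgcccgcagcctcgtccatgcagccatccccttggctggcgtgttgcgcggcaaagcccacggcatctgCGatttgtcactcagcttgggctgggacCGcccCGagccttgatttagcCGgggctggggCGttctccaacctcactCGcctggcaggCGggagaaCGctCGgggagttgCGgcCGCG
Nnat: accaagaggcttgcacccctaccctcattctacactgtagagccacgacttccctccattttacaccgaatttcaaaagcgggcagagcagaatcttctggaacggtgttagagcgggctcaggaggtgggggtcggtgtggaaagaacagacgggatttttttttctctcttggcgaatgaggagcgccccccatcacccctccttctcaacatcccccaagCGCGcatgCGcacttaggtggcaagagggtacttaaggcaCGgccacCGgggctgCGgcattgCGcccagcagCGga
Igf2r: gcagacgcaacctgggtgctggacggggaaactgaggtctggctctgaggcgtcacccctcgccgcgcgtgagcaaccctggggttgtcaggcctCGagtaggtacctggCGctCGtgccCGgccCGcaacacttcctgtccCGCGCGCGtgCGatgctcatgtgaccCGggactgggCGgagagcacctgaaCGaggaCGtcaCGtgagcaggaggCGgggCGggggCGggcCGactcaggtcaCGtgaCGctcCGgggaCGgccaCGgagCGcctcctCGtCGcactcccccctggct

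The Plagl1 promoter fell on chr10:12966326-12966625 with the gene start at 12966576. Of its 26 CGs, 18 were listed and 6 were members. The Nnat promoter fell on chr2:157401748-157402047 with the start at 157401998. It had 17 CGs, of which 8 were listed and 0 were members. The Igf2r promoter fell on the minus strand at chr17:12988544-12988843 with the start at 12988593. It was the densest with 34 CGs, of which 27 were listed and 18 were members. The Airn promoter held 3 CGs and 0 CCGG sites and could not be placed, so no distance to the Airn start is given. CCGG, the MspI site, occurred 2 times in the Plagl1 promoter, 1 time in that of Nnat and 3 times in that of Igf2r, and 53.0% of the 32544 promoters of the table held it. TGCCGC, searched on both strands, was found 1 time each in the Plagl1 and Nnat promoters and in neither those of Igf2r nor Airn, against 11.7% of all promoters. A match of letters is a description of the sequence and not evidence of binding. Exons and introns were not assigned, because the gene table follows another build than the mm39 positions.

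The loci differed in how their CpGs were spread over methylation levels. By the mean of the 6 samples, 69 of the 191 CpGs lay under 10%, 17 from 10 to 35%, 58 from 35 to 65%, 19 from 65 to 90% and 28 above 90%. The middle class held 21 of 52 CpGs at Plagl1, 23 of 62 at Nnat, 12 of 58 at Igf2r-Airn and 2 of 19 at Impact. Impact was the most methylated of the loci, with 12 of its 19 CpGs above 90%, and Nnat the least, with 34 of its 62 under 10%.

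**Figure D1:**
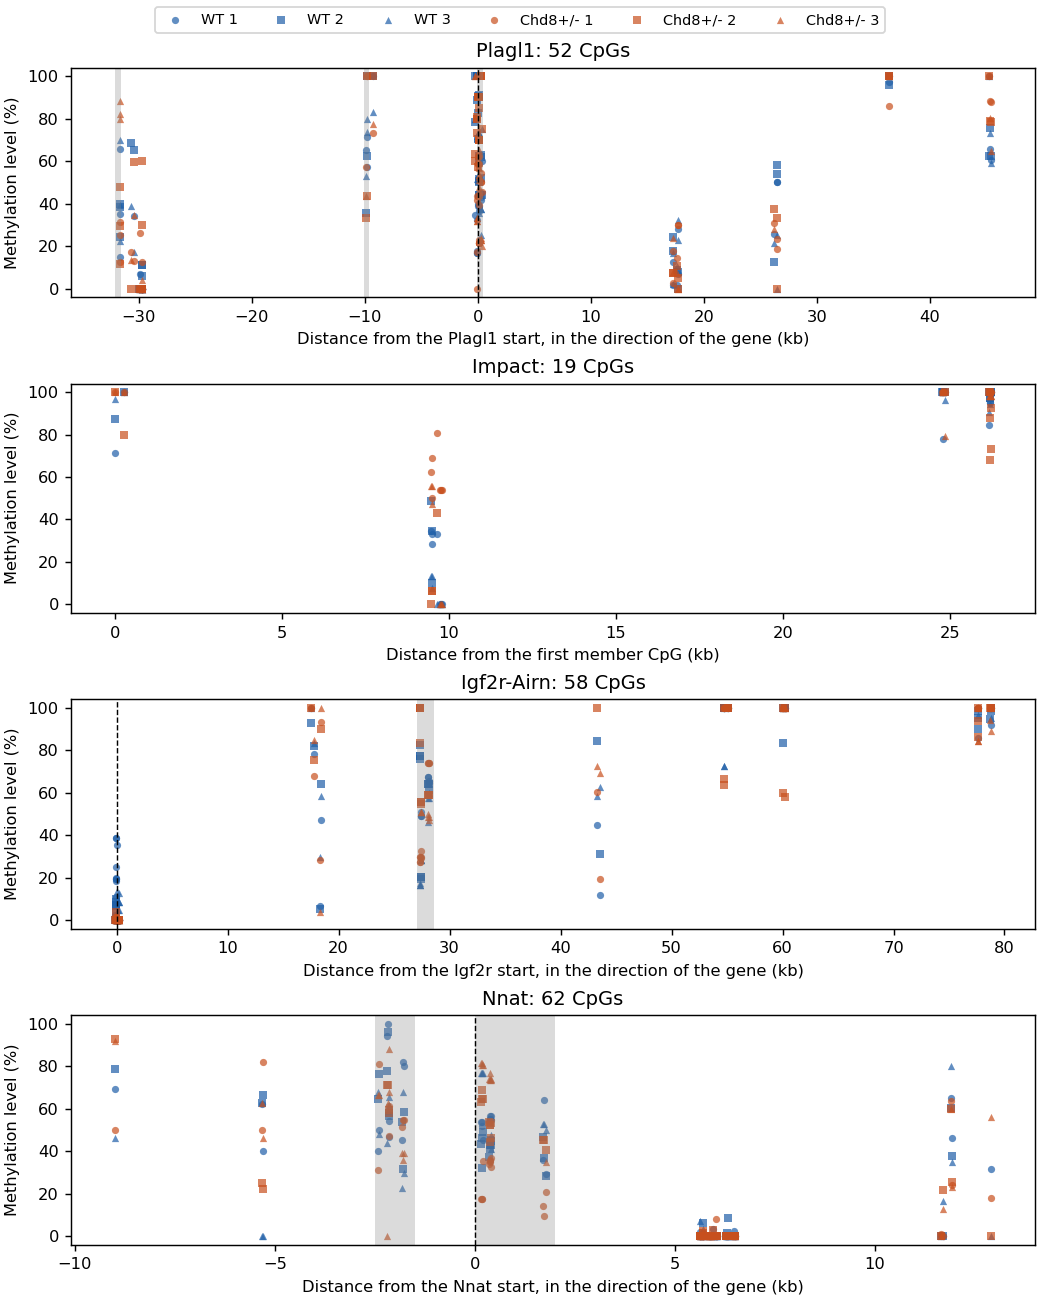
Methylation level (%) of each member CpG in each sample against the distance (kb) from the gene start, or from the first member CpG for Impact. Blue is WT, orange Chd8+/-, marker shapes are replicates 1 to 3, grey bands are the near-50% regions and dashed lines the gene starts. Intermediate levels cluster at the starts of Plagl1 and Nnat and about 27 to 28 kb into Igf2r.

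Levels were then taken in fixed 500-bp windows with at least 3 member CpGs, and a window was called near-50% when the mean of the 6 samples lay from 35 to 65%. Of 24 such windows 9 were near-50%: 3 at Plagl1, 2 at Igf2r-Airn, 4 at Nnat and 0 at Impact. A pair or more of neighbouring near-50% windows, with starts at most 1500 bp apart, was called a stretch. There was 1 stretch at Igf2r-Airn and 2 at Nnat, while the Plagl1 windows stood alone. This split depended on the settings. With windows of 250 bp, chr10:12966501-12967000 at the Plagl1 start was also a stretch. With limits of 40 to 60%, or at least 5 CpGs per window, no stretch was left at any locus. Over all autosomes 10783 of 106184 windows (10.2%) were near-50%. The share fell with CpG number, from 12.9% of windows with 3 or 4 CpGs to 1.79% with 10 to 19 and 0.655% with 20 or more. The window at the Plagl1 start held 20 CpGs and that just after the Nnat start held 10, which puts them in the last classes. Closest to the limits from inside were a Plagl1 window at 64.6% and an Nnat window at 37.6%, and from outside an Impact window at 34.0%.

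At the Plagl1 start, 20 CpGs from -68 to +356 bp around the gene start averaged near 50% in both genotypes. The window (chr10:12966501-12967000) stood at 41.7%, 69.8% and 56.1% in WT replicates 1 to 3 and at 39.7%, 81.1% and 44.3% in the Chd8+/- replicates, with 392 to 1005 reads per sample. Replicate 2 was the highest and replicate 1 the lowest in each genotype, and the groups overlapped. The mean was 55.9% ± 14.1 for WT and 55.1% ± 22.7 for Chd8+/- (SD, n = 3). They differed by -0.811 points (SE 15.4, exact two-sided permutation p = 0.9). The sign of so small a difference turned with the sample left out, from -13.8 points without Chd8+/- replicate 2 to 6.85 points without Chd8+/- replicate 1. The 6 member CpGs of the placed promoter ranged more widely, at 23.5%, 94.5% and 71.0% in WT and 25.6%, 72.8% and 55.0% in Chd8+/- (difference -11.9, SE 25.0, exact permutation p = 0.8). Without WT replicate 2 the promoter difference was 3.86 points and without WT replicate 1 it was -31.6 points. Of the 6 promoter CpGs, 4 also lie in the start window, so these regions are not independent. Over these 4, the ones read in all 6 libraries, the promoter difference was -16.0 points.

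Around the Plagl1 start the locus alternated between low and high windows. The near-50% window furthest upstream (chr10:12934501-12935000, 3 CpGs) stood at 38.5%, 34.2% and 44.0% in WT and at 22.9%, 29.7% and 83.5% in Chd8+/-. Only WT replicates 1 and 3 lay from 35 to 65% themselves, although the WT mean of 38.9% also did. Chd8+/- replicate 3 lay far above the others there; the difference of 6.48 points (SE 19.4, exact permutation p = 1) was -12.6 points without it. Further on, 8 CpGs (chr10:12936501-12937000) were almost unmethylated at a mean of 3.76%. The other near-50% window (chr10:12956501-12957000, 3 CpGs) stood at 64.5%, 66.0% and 68.8% in WT and at 85.7%, 59.0% and 43.8% in Chd8+/- (difference -3.62, SE 12.3, exact permutation p = 0.7). Its WT mean of 66.4% lay outside the limits of 35 to 65%, which the mean of the 6 samples met at 64.6%. Chd8+/- replicate 3 read 1 of the 3 CpGs there, with 16 reads, and over that CpG alone the samples stood at 65%, 35.5% and 52.9% in WT and at 57.1%, 33.3% and 43.8% in Chd8+/-. The SD was then 14.8 points in WT and 11.9 in Chd8+/-, against 2.19 and 21.2 over all CpGs read, so the order of the spreads turned with the CpGs. Among windows of 3 or more CpGs the mean difference was the greatest decrease at this locus. Next to the start window, 2 CpGs before it (chr10:12966001-12966500) averaged 73.1%, and the first 2 CpGs after it, from chr10:12983501, averaged 11.8%. Far downstream of the start, 3 CpGs from chr10:13011501 averaged 78.3% and gave the greatest increase in Chd8+/- among windows of that size at this locus, 10.3 points (SE 6.60, exact permutation p = 0.3). The CpG with the smallest edgeR p, at 12956785, stood at 57.1%, 100% and 80.0% in WT and at 100% in both Chd8+/- samples with reads (edgeR, Benjamini-Hochberg adjusted p = 1.00). The 26 member CpGs of the locus outside the near-50% windows differed by -1.02 points between the genotypes (SE 2.74, exact permutation p = 0.5).

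Inside Igf2r, a near-50% stretch of 11 CpGs lay 27330 to 28116 bp from the gene start (chr17:12960001-12961500). It stood at 59.3%, 57.0% and 34.1% in WT and at 45.6%, 71.3% and 49.7% in Chd8+/-, with 290 to 314 reads per sample. The means were 50.1% ± 13.9 and 55.6% ± 13.8 (SD, n = 3), a difference of 5.42 points (SE 11.3, exact permutation p = 0.6). Without WT replicate 3 it was -2.60 points and without Chd8+/- replicate 2 it was -2.45 points. WT replicate 1 and Chd8+/- replicate 3 read 7 of the 11 CpGs and the other libraries all of them. Over the 7 CpGs read in all 6 libraries the levels were 59.3%, 44.9% and 43.9% in WT and 55.4%, 57.3% and 49.7% in Chd8+/-, with SDs of 8.60 and 3.94 points and a difference of 4.76 points. The low WT replicate 3 and the high Chd8+/- replicate 2 no longer stood apart from the other samples over these CpGs.

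The larger window of the stretch (chr17:12961001-12961500, 7 CpGs) gave the greatest increase in Chd8+/- among windows of 3 or more CpGs at this locus, 11.4 points (SE 17.3, exact permutation p = 0.5). The flanks reached nearly full methylation on both sides, unevenly toward the gene start, before the low levels of the promoter. Toward the gene start, 2 CpGs averaged 51.5% (chr17:12970001-12970500), the nearer to the stretch at 75.5% and the other at 14.9%. This mean joins 35.3% in WT and 67.6% in Chd8+/-, groups that did not overlap there. Then came 1 CpG at 78.8% in the next window and 1 CpG at 98.5% in the one after. On the other side, 2 CpGs stood at 59.6% (chr17:12945001-12945500), and the windows further from the gene start, from chr17:12909501 to chr17:12934000, averaged 92.9% to 100%. The 47 CpGs outside the stretch differed by -3.62 points (SE 5.93, exact permutation p = 0.9). This sign also depended on the setting: over CpGs read in all 6 libraries it was 1.93 points.

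The Igf2r promoter itself was nearly unmethylated in 5 of the 6 libraries. Its 18 member CpGs stood at 12.7%, 3.33% and 1.75% in WT and at 0.380%, 0.285% and 0% in Chd8+/-, with 123 to 597 reads per sample. Chd8+/- replicate 3 had 0 methylated counts among 123, where a read counts at each CpG it covers. If these counts were independent, a level of up to 2.44% (3 counts in 123) would be allowed. The actual limit is wider, and 2.44% already covers the WT replicate 3 value. All WT samples lay above all Chd8+/- samples, by 5.71 points in the means (5.93% ± 5.93 against 0.222% ± 0.198, SD, n = 3), with an SE of 3.43. The exact two-sided permutation p was 0.1, the smallest that 3 samples against 3 allow, and 0.5 after Benjamini-Hochberg adjustment over 5 regions added after the data were seen. WT replicate 1 carried most of it, and without that library the difference was -2.32 points. Within the 4 libraries of lower chromosome X coverage it was -7.69 points. The libraries read 9 to 18 of the 18 CpGs, and over the 3 CpGs read in all 6 it was -6.59 points. The methylation in WT replicate 1 was also uneven along the promoter: 3 CpGs, at 12988592, 12988614 and 12988620, stood at 35.3%, 38.9% and 38.9% there and at 0% in every other library that read them, while 5 CpGs from 12988559 to 12988581 stood at 0% in all libraries with reads. Its window, chr17:12988501-12989000 with the same 18 CpGs, had the smallest edgeR p of the member windows (Benjamini-Hochberg adjusted p = 1.00 over all autosomal windows) and, among windows of 3 or more CpGs, was the window of the locus with the greatest decrease. Its CpG at 12988625 had the smallest edgeR p of the CpGs of the locus, at 25.0%, 6.67% and 1.75% in WT and 0% in each Chd8+/- sample (edgeR, Benjamini-Hochberg adjusted p = 1.00).

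At Nnat, near-50% levels occupied stretches on both sides of the gene start. The stretch after the start, 13 CpGs from +152 to +1780 bp (chr2:157402001-157404000), stood at 51.3%, 41.3% and 55.9% in WT and at 26.3%, 53.5% and 73.2% in Chd8+/-, with 329 to 633 reads per sample. The WT samples lay between the lowest and the highest Chd8+/- sample. Means were 49.5% ± 7.46 and 51.0% ± 23.6 (SD, n = 3), a difference of 1.55 points (SE 14.3, exact permutation p = 0.9). It was -9.56 points without Chd8+/- replicate 3 and 13.9 points without Chd8+/- replicate 1. The SD of Chd8+/- was the larger, a difference in spread that was not tested. Over autosomal near-50% windows with values in all 6 samples, the median SD was also larger in Chd8+/-, at 10.8 against 9.18 points in WT. The end of the stretch (chr2:157403501-157404000, 3 CpGs) held the greatest decrease in Chd8+/- among windows of 3 or more CpGs at the locus, -12.7 points (SE 9.55, exact permutation p = 0.3). Chd8+/- replicate 3 read 1 of its 3 CpGs, and over that CpG the difference was -3.56 points. The first window of the stretch (10 CpGs, all read in each library) gave the greatest increase of such windows, 3.28 points (SE 14.4, exact permutation p = 0.9).

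The Nnat stretch before the start, 9 CpGs from -2430 to -1775 bp (chr2:157399501-157400500), stood at 65.9%, 63.7% and 51.8% in WT and at 54.6%, 65.1% and 51.8% in Chd8+/-. Replicate 3 was the lowest in each genotype, and the groups overlapped. The difference was -3.31 points (60.5% ± 7.57 against 57.2% ± 6.98, SD, n = 3; SE 5.95; exact permutation p = 0.7). Leaving out 1 sample moved it from -7.63 points (without WT replicate 3) to -0.604 points (without WT replicate 1). It was -7.26 points without Chd8+/- replicate 2, -2.03 without Chd8+/- replicate 1, -1.69 without WT replicate 2 and -0.632 without Chd8+/- replicate 3. Chd8+/- replicates 1 and 2 had reads at 7 and 4 of the 9 CpGs. Over the 2 CpGs read in all 6 libraries the difference was 6.48 points, with SDs of 6.55 in WT and 12.7 in Chd8+/-. Before this stretch the nearest CpGs, 2 in the window chr2:157396501-157397000, averaged 43.3%.

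Downstream of the Nnat start the levels were close to 0% at the Blcap promoter. The windows at chr2:157407501-157408000 (18 CpGs, 921 to 1905 reads) and chr2:157408001-157408500 (13 CpGs) averaged 0.348% and 0.267%. The placed Blcap promoter, with 10 member CpGs, stood at 0.256%, 0.992% and 0% in WT and at 0% in each Chd8+/- sample. There 190 to 424 counts would allow up to 0.708% to 1.58% if they were independent. A read counts at each CpG it covers, so the actual limits are wider. Levels rose again to a mean of 26.3% in the window of 4 CpGs from chr2:157413501. This mean joins unlike CpGs, at 0.181%, 8.55%, 64.8% and 31.9% in order of position. There the CpG at 157413701 had the smallest edgeR p of the locus, at 0%, 0% and 16.7% in WT and 0%, 21.6% and 13.0% in Chd8+/- (edgeR, Benjamini-Hochberg adjusted p = 1.00). The 40 CpGs outside the 2 stretches differed by 1.65 points (SE 1.85, exact permutation p = 0.4).

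Impact had no near-50% window but a dip in otherwise methylated DNA. Neighbouring windows with 4 and 3 CpGs (chr18:13106001-13107000) averaged 34.0% and 13.5%, against 92.6% to 98.4% in the other 5 windows of the locus. Together these 7 CpGs stood at 18.5%, 31.0% and 4.91% in WT and at 60.5%, 13.8% and 26.4% in Chd8+/-, with 62 to 211 reads per sample. Chd8+/- replicate 1 was the highest, and Chd8+/- replicate 2 lay below WT replicates 1 and 2. The difference of 15.4 points (18.1% ± 13.1 against 33.6% ± 24.2, SD, n = 3; SE 15.9; exact permutation p = 0.5) was 1.95 points without Chd8+/- replicate 1. The second window (3 CpGs) gave the greatest increase of all windows of the locus, with Chd8+/- replicate 1 at 53.8% and the other 3 libraries with reads at 0%. WT replicate 2 and Chd8+/- replicate 2 had no reads in it. Among windows of 3 or more CpGs the greatest decrease, -2.07 points (SE 4.66), lay in a methylated window of 5 CpGs from chr18:13122501. The CpG at 13096780, on the side of the dip with lower positions, had the smallest edgeR p of the locus. It stood at 71.4%, 87.5% and 96.6% in WT and at 100% in each Chd8+/- sample (edgeR, Benjamini-Hochberg adjusted p = 1.00).

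**Figure D2:**
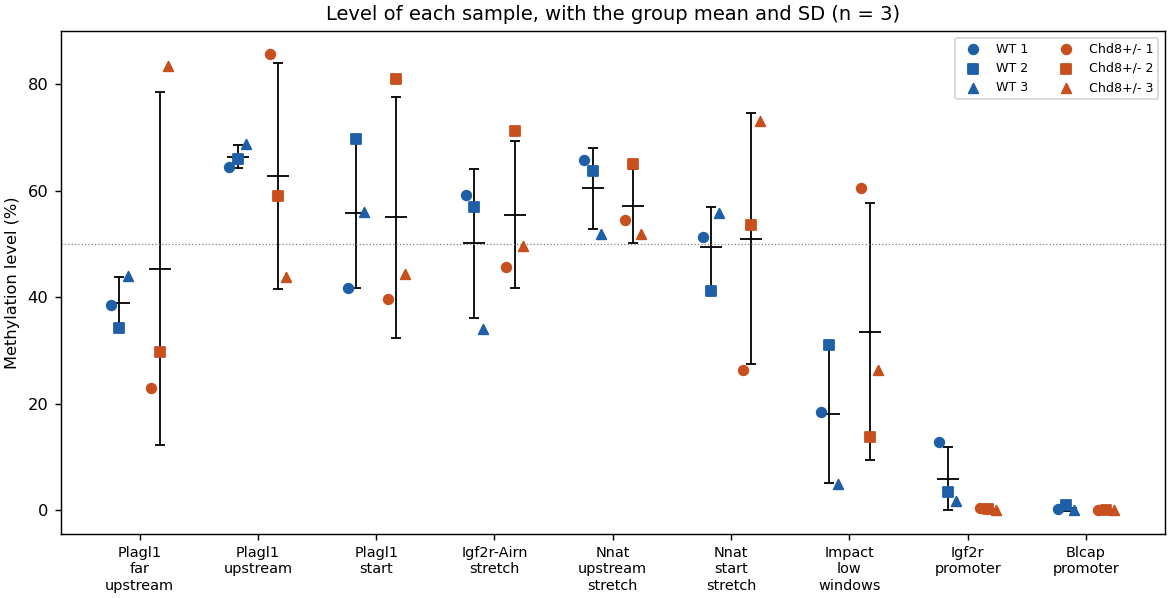
Methylation level (%) of each sample in the near-50% regions, the Impact dip and 2 promoters. Points are samples (blue WT, orange Chd8+/-), horizontal bars the group means, error bars the SD over 3 samples, and the dotted line is 50%. Groups overlap in every region shown but the Igf2r promoter, where WT replicate 1 lies at 12.7%.

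Neighbouring CpGs of a sample moved together in these regions, and samples moved apart. Cytosines of one strand with gaps of at most 60 bp were joined to 18 runs of 3 or more. Cytosines of a run are largely covered by the same reads and are not independent. The SD between CpGs within a sample had a median of 1.40 points over the runs, and the pooled SD between samples of a genotype had a median of 16.3 points. The second was the larger in 16 of the 18 runs.

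Levels also changed from one run to the next within a sample. In WT replicate 2, the Plagl1 runs stood at 100% on the reverse strand from 12966508 to 12966557, at 88.3% on the forward strand from 12966631 to 12966678 and at 48.4% on the reverse strand from 12966678 to 12966724. WT replicate 1 stood at 17.5%, 38.1% and 51.7% in the same runs. The order of these libraries turned over within this window. The forward run and the second reverse run share the CpG at 12966678, so they differ in strand as well as position. With strands merged that CpG stood at 62.2% in WT replicate 2. Strand and position were not separated here. In the Igf2r stretch the reverse run from 12961235 to 12961263 stood at 76.4% and 16.9% in WT replicates 2 and 3 and at 28.6% and 98.1% in Chd8+/- replicates 1 and 2. The forward run from 12961123 to 12961157, next to it, stood at 19.99% and 28.6% in those WT libraries and at 30.6% and 55.2% in those Chd8+/- libraries. The labels mention no molecular identifiers, so the number of separate DNA molecules behind these reads is not known.

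**Figure D3:**
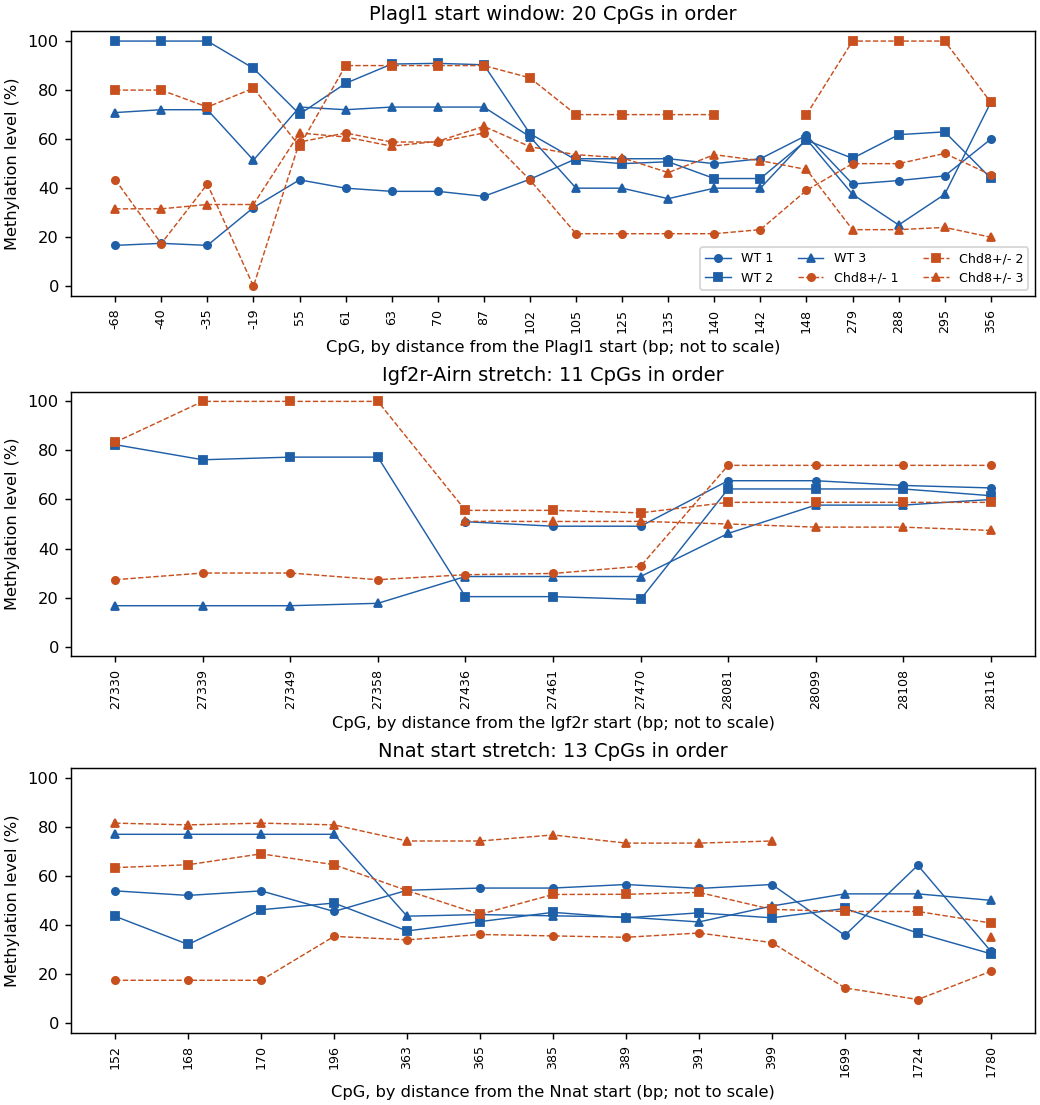
Methylation level (%) of each member CpG in order along the Plagl1 start window, the Igf2r stretch and the Nnat stretch after the start, labelled by distance (bp) from the gene start and not to scale. Lines join the CpGs of a sample (blue solid WT, orange dashed Chd8+/-), with strands merged. Levels change along the regions within a sample: WT replicate 2 at Plagl1 goes from 100% at 12966508 to 50% at 12966701.

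The spread between samples of these windows was set beside that of other near-50% windows. Over 9732 autosomal near-50% windows with values in all 6 samples, the median pooled SD within a genotype was 11.1 points. The 8 member windows with 6 values ranged from 6.05 points before Nnat to 23.7 points at the far upstream Plagl1 window. The Plagl1 windows, from upstream to the start, exceeded 94.6%, 73.1% and 86.4% of the autosomal near-50% windows in this SD. The smaller and the larger Igf2r window exceeded 37.9% and 91.2%. The Nnat windows, in order of position, exceeded 12.9%, 82.9% and 53.9%. The autosomal median SD fell with CpG number, from 11.7 points with 3 or 4 CpGs to 8.84 with 10 to 19 and 6.75 with 20 or more. The last class held 18 near-50% windows. The Plagl1 start window, with 20 CpGs, had 18.9 points, and the first window after the Nnat start, with 10 CpGs, had 17.6. Some of these SDs compare unequal CpGs: in the larger Igf2r window, at 21.2 points, WT replicate 1 and Chd8+/- replicate 3 read 3 of the 7 CpGs, and over those 3 the pooled SD was 14.3 points. In the window before Nnat it was 10.1 points over the 2 CpGs read in all 6 libraries, and in the upstream Plagl1 window 13.5 points over 1 CpG. The genotype differences of the 8 windows lay between 0.811 and 12.7 points in size. The median size over autosomal near-50% windows was 6.90 points, and 90% of them differed by less than 18.1 points.

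**Figure D4:**
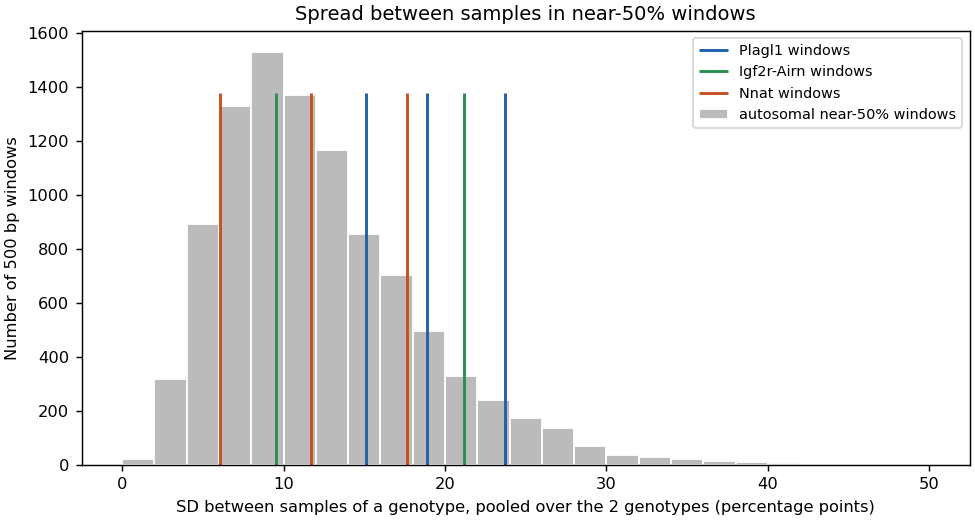
Number of autosomal near-50% windows of 500 bp by the pooled SD between samples of a genotype (percentage points), with a vertical line for each of the 8 member windows. The autosomal median is 11.1 points, and the member windows run from 6.05 to 23.7 points.

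No member window or CpG differed between the genotypes at the adjusted threshold. In edgeR's quasi-likelihood test on methylated and unmethylated reads, 0 of the 24 member windows and 0 of the 150 member CpGs tested had a Benjamini-Hochberg adjusted p under 0.05, beside 0 of 102748 autosomal windows (0%) and 0 of 609673 autosomal CpGs (0%). At an unadjusted p under 0.05 stood 1 of the 24 windows and 4 of the 150 CpGs, against 3.51% of autosomal windows and 3.02% of autosomal CpGs. The 4 CpGs of edgeR lay at Impact and Igf2r-Airn, 2 in each. With limma the counts at the adjusted threshold were also 0 and 0. At an unadjusted p under 0.05 limma gave 1 member window and 4 member CpGs. Beside them stood 5311 of 102748 autosomal windows and 31183 of 609673 autosomal CpGs. The groups did not overlap in 1 of 20 member windows with 6 values, against 8.79% of autosomal windows. Of the 23 member windows with 1 or 2 CpGs, 15 had 6 values, and the groups did not overlap in 3 of these, against 8.76% of autosomal windows of that kind. Such windows gave differences larger than those named above. They were -43.6, -20.6 and -11.0 points and 12.8 and 11.98 points at Plagl1, 32.3, 21.4 and -10.5 points at Igf2r-Airn, 13.7, 9.49 and 8.94 points at Nnat, and -6.67 and -3.14 points at Impact. Of the 24 windows of 3 or more CpGs 9 were higher and 15 lower in Chd8+/-, with a median difference of -1.39 points, beside 50.8% higher and a median of 0.0433 points over all autosomal windows.

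Over whole loci the difference between the genotypes was -0.588 points at Plagl1 (SE 6.57), 3.48 points at Impact (SE 8.80), -1.35 points at Igf2r-Airn (SE 6.48) and -0.298 points at Nnat (SE 4.33). Each was smaller than its SE, and the exact two-sided permutation p lay between 0.6 and 1. After Benjamini-Hochberg adjustment the smallest p was 0.9 for the 3 stretches and 1 for the 3 lone Plagl1 windows and for the 4 loci.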

How the data were processed

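RRBS of 6 P5 neocortex samples came as 1 table of CpG cytosines per library. The authors deposited a coverage column, which holds counts of reads, and the percent of reads with a cytosine, per the file headers. Bismark 0.20.0, SAMtools 1.9, Trim Galore 0.4.4 and the build mm39 are named in the submitters' processing notes; settings and deduplication are not given in the sources used here. No cytosine is listed under 10 reads. Methylated reads, coverage times percent, were whole within 0.02 for over 99.9% of cytosines and were rounded. Totals of coverage count a read at each CpG it covers.

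Strands were merged by adding reads. The level of a sample in a region was the unweighted mean over its member CpGs with reads there, so samples can differ in the CpGs they cover. Windows were fixed at 500 bp. Region differences are Chd8+/- minus WT in percentage points and were tested by an exact two-sided permutation test over samples, which cannot go below 0.1 for 3 against 3, with Benjamini-Hochberg adjustment within each kind of region. Windows and CpGs were tested over all autosomes with edgeR 4.0.16 (quasi-likelihood test, R 4.3.3; a coverage term per sample, genotype on the methylated share; features at 0% or 100% in every sample left out), and alternatively with limma 3.58.1 and Fisher's exact test on pooled reads. The fits were tested on simulated counts. Other steps used scipy 1.17.1, pandas 2.3.3 and numpy 2.4.6 under Python 3.11.15, with figures by matplotlib 3.10.9.

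The members, intervals and tests were chosen with earlier results of these data known. Named within each locus were each near-50% region, its nearest windows, the windows of 3 or more CpGs with the greatest increase and decrease, and the CpG with the smallest edgeR p. The 3 promoters (Plagl1, Igf2r, Blcap), the Impact windows under 35%, the Plagl1 CpGs outside the near-50% windows, the strand runs, the levels of each sample over CpGs read in all 6 libraries, the windows of 1 or 2 CpGs and the placement by most matches were added after seeing the data. The bisulfite conversion statistics were not used here. No pairing of the samples by the replicate numbers of the labels was seen, as given with the alternatives, but none could be excluded.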

Additional observations from a re-analysis of the deposited data

How the results depend on the processing

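Of 282 differences recomputed under the alternatives, 223 kept their sign and 59 turned. None passed an adjusted threshold, and since no exact p could fall below 0.1 (0.25 paired, 0.333 for 2 against 2) this says nothing of stability. With 20 reads per CpG the difference turned to 2.75 points in the Igf2r-Airn flank, 3.32 at the Igf2r-Airn locus, -0.972 at Impact, 5.19 at Nnat, 4.97 in the Nnat stretch before the start (exact permutation p = 0.1) and 2.14 at Plagl1 outside the near-50% windows. Over CpGs covered in all 6 samples it was 1.93 in the Igf2r-Airn flank, 2.97 at that locus, 1.42 at Nnat, 6.48 in the Nnat stretch before the start, 0.762 at Plagl1 and 2.19 outside its near-50% windows. With reads as weights it was 4.39 in the Igf2r-Airn flank, 4.29 at that locus, 2.33 at Nnat, 0.220 in the Nnat stretch before the start, 5.71 at Plagl1, 2.07 at the Plagl1 start and 8.82 outside its near-50% windows. Forward cytosines alone gave -0.249 at Impact, 2.08 at Nnat, 5.89 and -19.4 in the Nnat stretches before and after the start, and 5.59 at the Plagl1 start. Reverse cytosines alone gave 5.87 in the Igf2r-Airn flank, 7.91 at that locus and 0.0137 at Plagl1 outside its near-50% windows. Within the 4 libraries of lower chromosome X coverage it was -0.756 in the Nnat flank, -6.35 in the Nnat stretch after the start, 1.01 at Plagl1 and -10.1, 7.11 and 4.67 in its 3 near-50% windows from upstream to the start. The Nnat flank turned to -0.140 with windows of 250 bp and to -0.298 with limits of 40 to 60% or at least 5 CpGs per window, where no stretch is left at Nnat. The cause of these changes was not tested, beyond the CpGs and samples each setting leaves out.

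Leaving out each sample in turn gave differences from -12.6 to 17.7 (Plagl1 far upstream), -15.1 to 5.92 (Plagl1 upstream), -13.8 to 6.85 (Plagl1 start), -31.6 to 3.86 (Plagl1 promoter), -2.70 to 1.13 (Plagl1 outside near-50% windows), -5.72 to 2.98 (Plagl1 locus), -2.60 to 10.4 (Igf2r-Airn stretch), -7.43 to 2.00 (its flank), -5.81 to 4.09 (its locus), -1.71 to 10.2 (Impact locus), -9.56 to 13.9 (Nnat stretch after the start) and -4.51 to 2.47 points (Nnat locus). It was -7.63 to -0.604 in the Nnat stretch before the start. SDs then ran from 2.87 to 18.1 (Chd8+/-) and 1.57 to 17.8 (WT) in the Igf2r-Airn stretch, 1.98 to 9.37 and 1.53 to 9.94 before Nnat, 13.9 to 33.2 and 3.27 to 10.3 after its start, and 4.81 to 42.9 and 3.07 to 6.92, 10.8 to 29.7 and 1.04 to 3.04, and 3.24 to 29.2 and 9.70 to 19.9 in the 3 Plagl1 windows. Reverse cytosines alone gave SDs of 42.1 (WT) and 49.1 points (Chd8+/-) in the Igf2r-Airn stretch and 17.9 and 14.4 in the Nnat stretch before the start. The WT SD of the upstream Plagl1 window, 2.19 points, was 5.47 to 20.9 under 4 settings. No pairing by replicate number was seen in the window levels. Over 94527 windows the deviations of samples with the same number correlated at -0.00333 to 0.00235, against -0.00461 to 0.00642 with different numbers. These correlations cannot exclude a pairing, and replicate 3 of both genotypes had the higher chromosome X share. With the replicate block the difference of the Igf2r promoter was -5.71 points with an exact paired p of 0.25. Fisher's exact test on reads pooled per genotype, with reads and not samples as replicates, called 7 of the 24 member windows and 23 of the 150 member CpGs, beside 32816 of 102748 autosomal windows and 150974 of 609673 autosomal CpGs. limma and the other edgeR settings called 0 members. The flank of Plagl1 and Impact is the whole locus, as neither has a stretch. At a median of 26 reads per CpG counting error stays wide, and reads without molecular identifiers are not independent molecules, so these limits cover counting error only.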

Other observations

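Under the alternative of 1 CpG per window, 0 of 45 member windows and 0 of 264601 autosomal windows passed (edgeR). Windows with fewer than 3 member CpGs entered the test over all autosomes only there. The 3 with 6 values whose groups did not overlap, and 1 with 5 values, were singled out after their values were seen. At Igf2r, 2 CpGs (chr17:12970001-12970500) stood at 27.1%, 34.6% and 44.2% in WT and at 61.0%, 90% and 51.9% in Chd8+/-, with 10 to 88 reads per sample. Chd8+/- replicate 2 read 1 of these CpGs, and over it the levels were 47.4%, 64.0% and 58.3% in WT and 93.3%, 90% and 100% in Chd8+/-. At Plagl1, 1 CpG in the window from chr10:12935501 stood at 68.8% and 38.9% in WT replicates 2 and 3 and at 17.4%, 0% and 13.3% in Chd8+/-, with 12 to 23 reads. Another in the window from chr10:12992501 stood at 25.7%, 12.6% and 21.6% in WT and at 30.6%, 37.3% and 27.9% in Chd8+/-, with 86 to 215 reads. The fourth is the Impact CpG at 13096780 described above. Their exact two-sided permutation p was 0.1, the smallest for 3 against 3 samples and also for 2 against 3.

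CpGs that missed the coverage rule had these levels around the Nnat and Plagl1 starts and in and near the Impact dip. The 8 listed CpGs of the Nnat promoter stood at 15.8%, 56.5% and 59.4% in WT replicates 1 to 3 and at 32.5% in Chd8+/- replicate 2, the only libraries that read them, over 8, 4, 4 and 7 of the CpGs. In the window from chr2:157402001, 14 such CpGs, some of them in the promoter too, stood at 9.36%, 46.9% and 59.9% in WT, over 8, 10 and 6 CpGs, and at 72.7%, 35.6% and 43.8% in Chd8+/-, over 3, 10 and 4 CpGs. The 12 such CpGs of the Plagl1 promoter stood at 52.6%, 51.98% and 46.9% in WT, over 11, 11 and 5 CpGs. In Chd8+/- replicates 2 and 3 they stood at 57.9% and 65%, over 1 and 2 CpGs. In the first Impact window under 35%, 13 further CpGs stood at 36.4%, 57.3% and 0% in WT and at 78.6% and 42.9% in Chd8+/- replicates 1 and 2, each over 3 to 7 CpGs. Near the dip, 2 CpGs in the window from chr18:13105001 stood at 49.7% and 47.5% in WT replicates 1 and 2. No other library read them.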
